A study of Homo sapiens with 4 samples.

Results

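The genes described here are 37 cytokines and chemokines, the secreted or membrane-bound proteins by which cells call in and instruct immune cells. They were chosen by symbol, and all 37 were found, each as a single line of the deposited table, among 59533 genes analysed. RNA was sequenced from 4 libraries, 1 for each group, of 2 human cell lines. All 4 carry the label p53-/- and a label of infection with p53-R282W, an altered version of a tumour suppressor protein found in cancers. The groups were HCC1937, a breast cancer line, given decitabine (DAC) at 0.3 µM for 5 days, HCC1937 without DAC, THP-1, a monocytic leukaemia line, given DAC at 5 µM for 2 days, and THP-1 without DAC. DAC is a deoxycytidine analogue that traps DNA methyltransferases and lowers DNA methylation as cells divide. No library without the p53 mutant was analysed here, and the labels do not say whether the infected cells were pools or clones. The question set by the labels is what DAC does to expression in cells carrying the mutant.

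Chemokines bind receptors on white blood cells and set the direction in which these cells move. CXC chemokines that carry the amino acids ELR before their first cysteines attract neutrophils, while CXCL10 and CXCL11, induced by interferon, attract activated T cells. Cytokines of the IL-1, IL-6 and tumour necrosis factor families start and sustain inflammation, and many of these genes are switched on through the transcription factor NF-kB. Epithelial tumour cells and monocytic cells are both known sources of such signals, with different sets of genes in use.

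Levels are given in FPKM, the reads of a gene scaled to the length of its exons and to the reads counted in the library. The spacing of low values put the depth at 18.7 M counted reads in each HCC1937 library and at 19.7 and 19.5 M in the DAC and untreated THP-1 libraries. Since each group had 1 library, the spread between replicates is unknown and p-values are not given. Each ratio carries a 95% interval from estimated reads (exact, Clopper-Pearson), which covers counting error only. Genes that reached 1 FPKM in either library of a line were kept there, and called higher or lower with DAC at a difference of 2-fold or more on log2(FPKM + 1), a scale that understates the change of low genes. Among 10 markers of epithelial and basal breast cells, 10 were at 1 FPKM or above in each HCC1937 library, and 5 and 4 in the DAC and untreated THP-1 libraries. Of 12 myeloid markers, 12 reached it in each THP-1 library and 4 and 1 in the DAC and untreated HCC1937 libraries.

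In HCC1937, the cytokine RNAs as deposited differed with DAC in their makeup more than in their sum. The 37 levels summed to 327 FPKM with DAC and 340 FPKM untreated. Median-of-ratios and upper-quartile scaling multiply DAC levels relative to untreated ones by 0.904 and 0.806. The sum with DAC would then lie further below the untreated sum. IL6, CCL5, CX3CL1, CCL20, TNF, IL24 and CXCL11 were higher with DAC, while IL1B, CXCL1, CXCL8, CCL28 and LIF were lower. CCL5 was the most abundant member with DAC and CXCL1 the most abundant untreated. Of the 25 members kept, 7 were called higher, where 10.3% of all 14058 kept genes were, and 5 were called lower, where 1.44% of all kept genes were. For these 12 members the counting interval also lay wholly beyond 2-fold, and for the other 13 it did not. CX3CL1, IL24 and CXCL11 were kept through the DAC library alone. They therefore had to stand above their untreated value, though not by 2-fold. The median log2 difference was -0.04 over the 25 kept members and 0.00 over all 37, against 0.19 over all kept genes. Over all 37 as deposited, 16 stood above their untreated value with DAC, 17 below it and 4 at the same value. The lower member nearest to the 2-fold limit was LIF, at a log2 difference of -1.11, and the uncalled member nearest to it was CSF3, at 0.88.

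**Figure D1:**
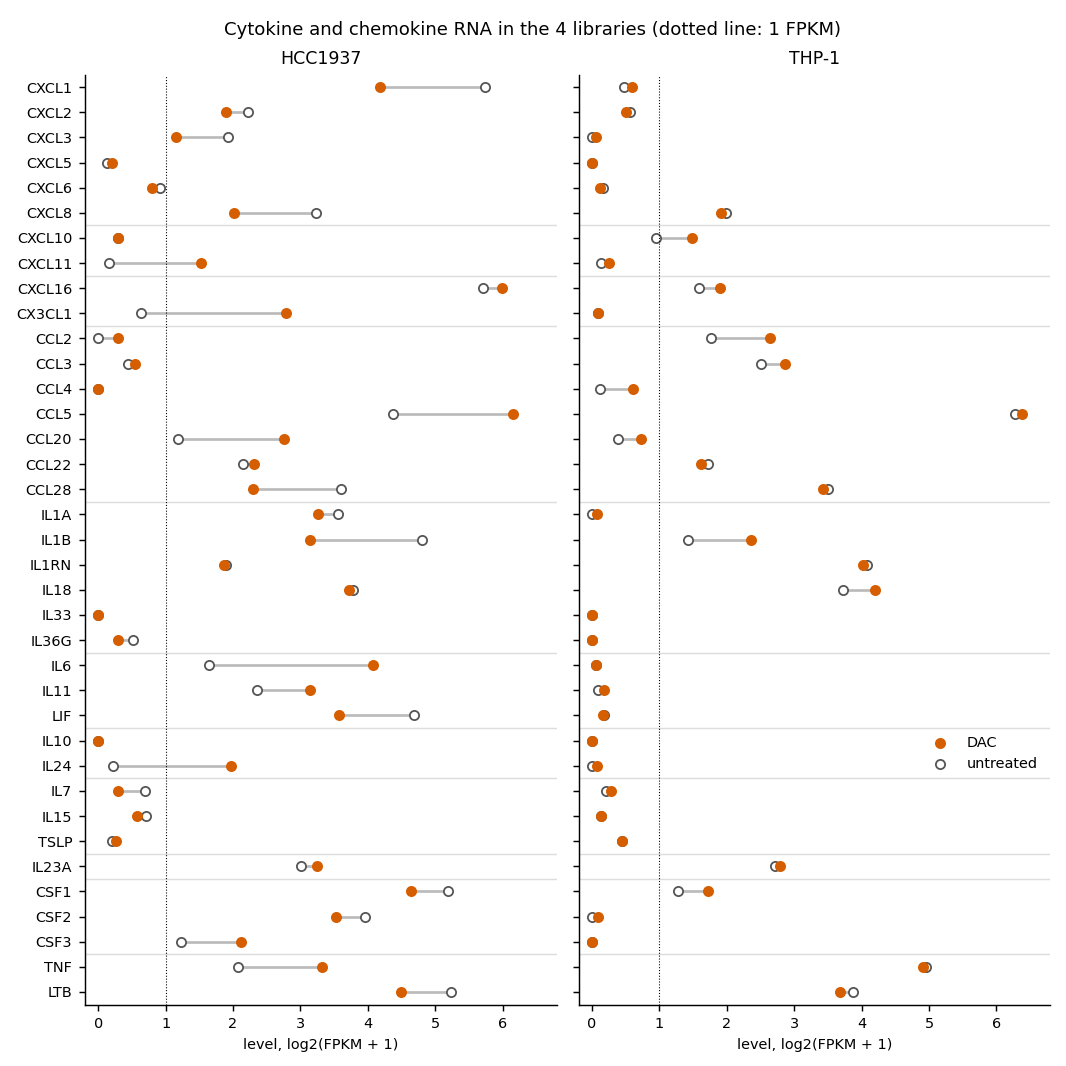
Levels of the 37 members as log2(FPKM + 1), with DAC (filled) and untreated (open), 1 library per symbol, in HCC1937 and THP-1; grey lines part the families. In HCC1937 the symbols of IL6, CX3CL1 and CCL5 lie far apart with DAC to the right, and those of CXCL1, CXCL8 and IL1B with DAC to the left, while in THP-1 most symbols nearly coincide.

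The promoters of 6 called members are shown because they are genes in which NF-kB control is well known, 3 of them higher and 3 lower with DAC. Each is the 250 bases before the RefSeq start on GRCh38.p14, written 5′ to 3′ on the strand of the gene. The gene coordinates given further on span all GENCODE transcripts, so the windows of IL6 and CCL20 lie within them and those of IL1B and CXCL8 partly so. Capitals mark matches, on either strand, to the NF-kB site consensus GGGRNNYYCC (kappaB), to the AP-1 site TGANTCA or to TATAAA. In these patterns R is A or G, Y is C or T and N is any base.
IL6 (chr7:22726950-22727199, plus strand): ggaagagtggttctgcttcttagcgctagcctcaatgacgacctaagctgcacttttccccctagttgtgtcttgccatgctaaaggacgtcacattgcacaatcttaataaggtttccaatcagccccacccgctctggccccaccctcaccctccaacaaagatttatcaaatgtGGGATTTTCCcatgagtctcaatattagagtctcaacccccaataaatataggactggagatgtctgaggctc
CCL20 (chr2:227813592-227813841, plus strand): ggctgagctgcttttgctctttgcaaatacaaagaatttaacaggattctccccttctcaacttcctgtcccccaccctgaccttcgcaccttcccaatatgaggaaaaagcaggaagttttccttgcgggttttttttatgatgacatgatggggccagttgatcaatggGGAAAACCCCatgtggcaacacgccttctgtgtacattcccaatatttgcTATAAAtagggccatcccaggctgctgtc
TNF (chr6:31575315-31575564, plus strand): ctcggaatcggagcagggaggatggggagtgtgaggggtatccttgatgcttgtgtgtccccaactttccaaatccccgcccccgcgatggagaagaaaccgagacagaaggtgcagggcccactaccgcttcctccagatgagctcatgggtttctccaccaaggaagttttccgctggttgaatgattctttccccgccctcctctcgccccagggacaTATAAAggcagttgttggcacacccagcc
IL1B (chr2:112836780-112837029, minus strand): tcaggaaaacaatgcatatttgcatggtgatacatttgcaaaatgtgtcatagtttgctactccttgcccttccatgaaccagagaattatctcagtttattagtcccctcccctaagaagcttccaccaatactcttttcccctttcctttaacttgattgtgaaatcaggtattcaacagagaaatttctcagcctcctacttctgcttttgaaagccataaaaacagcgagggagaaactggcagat
CXCL1 (chr4:73869143-73869392, plus strand): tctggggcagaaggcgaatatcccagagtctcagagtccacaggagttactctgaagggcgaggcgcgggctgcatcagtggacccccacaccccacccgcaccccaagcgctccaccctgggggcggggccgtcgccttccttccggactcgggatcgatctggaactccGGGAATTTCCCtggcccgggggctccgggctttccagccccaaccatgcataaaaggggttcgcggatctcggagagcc
CXCL8 (chr4:73740319-73740568, plus strand): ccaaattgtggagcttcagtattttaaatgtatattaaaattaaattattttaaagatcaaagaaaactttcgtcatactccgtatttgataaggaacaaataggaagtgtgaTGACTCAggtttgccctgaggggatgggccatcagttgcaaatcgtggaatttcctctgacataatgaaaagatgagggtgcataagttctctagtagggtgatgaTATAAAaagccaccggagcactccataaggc
IL6 and CCL20, both higher with DAC, and CXCL1, lower with DAC, each held a kappaB match starting 73 or 79 bases before the RefSeq start. In CXCL1 the stretch holds 2 overlapping matches, 1 on each strand, the second starting 78 bases before that start. In these windows of TNF, IL1B and CXCL8 the exact kappaB pattern did not occur. Looser forms of the site were not searched for, so this does not show that a window lacks an NF-kB site. CXCL8 held an AP-1 match, and CXCL8, CCL20 and TNF held TATAAA. Over all windows of the members in the table (38 windows of 26 genes), a kappaB match was found in 36.8%, an AP-1 match in 21.1% and TATAAA in 26.3%. Among 35116 such windows of genes on all other chromosomes the shares were 10.0%, 6.6% and 10.7%. The windows of members were poor in CG dinucleotides, the letters at which DNA is methylated, with a median of 3 (0 to 20) against 11 over the 35116 windows. The CG number was 4 in IL6, 3 in CCL20, 10 in TNF, 2 in IL24 and 0 in CXCL11, the higher members with a window. It was 1 in IL1B, 18 in CXCL1, 4 in CXCL8 and 2 and 20 in the alternative windows of CCL28, the lower ones. A match is a description of letters, and neither methylation nor binding was measured.

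The neutrophil-attracting ELR chemokines of HCC1937 summed to 24.98 FPKM with DAC and 68.35 FPKM untreated, and 5 of the 6 stood below their untreated level. Of the 6 genes 4 were kept, of which 0 were called higher and 2 lower, beside 10.3% and 1.44% of all kept genes. CXCL1 (ENSG00000163739.4, chromosome 4, 73869393 to 73871242) made up most of that sum, with 17.1 FPKM with DAC and 52.5 FPKM untreated, a ratio of 0.326 (0.291 to 0.365). CXCL8 (ENSG00000169429.10, chromosome 4, 73740506 to 73743716), also called interleukin-8, had 3.03 FPKM with DAC and 8.43 FPKM untreated, a ratio of 0.359 (0.292 to 0.442). CXCL3 had 1.23 FPKM with DAC and 2.79 FPKM untreated, and its ratio of 0.441 (0.310 to 0.616) missed the call on the log2(FPKM + 1) scale. CXCL2 had 2.71 and 3.67 FPKM, with an interval of the ratio that just included 1 (0.541 to 1.002) and lay below it under both other scalings. The closely related CXCL5 (0.15 and 0.09 FPKM) and CXCL6 (0.73 and 0.89 FPKM) were not kept. These 6 genes lie within 359 kb of chromosome 4. CXCL1, CXCL2 and CXCL3 are similar, and 5.7%, 9.2% and 5.3% of the 50-base stretches of their transcripts occur in another gene, so a small share of their reads may have been split among them.

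The interferon-induced pair on the same chromosome did not move together. CXCL11 (ENSG00000169248.12, chromosome 4, 76033682 to 76041415), a ligand of the T cell receptor CXCR3, had 1.89 FPKM with DAC and 0.12 FPKM untreated, which is about 67 and 4 reads. Its ratio of 15.8 therefore had a wide interval (6.25 to 63.3). CXCL10, a ligand of the same receptor whose gene lies beside it, had 0.23 FPKM in each HCC1937 library, about 5 reads. The gene ART3, which overlaps both on the opposite strand, had 0.07 FPKM with DAC and was listed at 0 untreated, and a pseudogene within CXCL11, AC112719.1, had 0.51 FPKM with DAC and was listed at 0 untreated.

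Of the membrane-bound chemokines, 1 of 2 was called higher, where 10.3% of all kept genes were. CX3CL1 (ENSG00000006210.6, chromosome 16, 57372458 to 57385048), or fractalkine, which tethers monocytes and cytotoxic lymphocytes, had 5.91 FPKM with DAC and 0.55 FPKM untreated, a ratio of 10.7 (8.21 to 14.1). CXCL16, also a scavenger receptor, was already abundant and had 62.8 FPKM with DAC and 51.0 FPKM untreated, a ratio of 1.23 (1.17 to 1.30). Its log2 difference of 0.29 was 0.15 under median-of-ratios and -0.01 under upper-quartile scaling, so its direction depends on the scaling. The CXCL16 gene is overlapped on the opposite strand by MED11, at 8.47 and 6.34 FPKM. CCL22, 26.3 kb from end to end with CX3CL1, had 3.97 and 3.45 FPKM, an interval of the ratio that included 1 (0.940 to 1.40).

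Among the CC chemokines, CCL5 and CCL20 were higher and CCL28 lower. CCL5 (ENSG00000271503.5, chromosome 17, 35871491 to 35880793), which attracts T cells and monocytes, had 70.1 FPKM with DAC and 19.6 FPKM untreated, a ratio of 3.57 (3.25 to 3.94) on about 1981 and 554 reads. It was above 95.2% of genes that reached 1 FPKM with DAC and above 78.5% of them untreated. Part of its transcript is a repeated sequence found in many other genes, so some of its reads may go uncounted. CCL20 (ENSG00000115009.12, chromosome 2, 227805739 to 227817564), the ligand of CCR6, had 5.76 FPKM with DAC and 1.27 FPKM untreated, a ratio of 4.54 (3.17 to 6.61). CCL28 (ENSG00000151882.11, chromosome 5, 43376645 to 43412391), a chemokine of mucosal epithelia, had 3.93 FPKM with DAC and 11.1 FPKM untreated, a ratio of 0.353 (0.310 to 0.3998). The monocyte attractant CCL2 had 0.22 FPKM with DAC and was listed at 0 untreated, CCL3 had 0.46 and 0.36 FPKM, and CCL4 was listed at 0 in both.

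**Figure D2:**
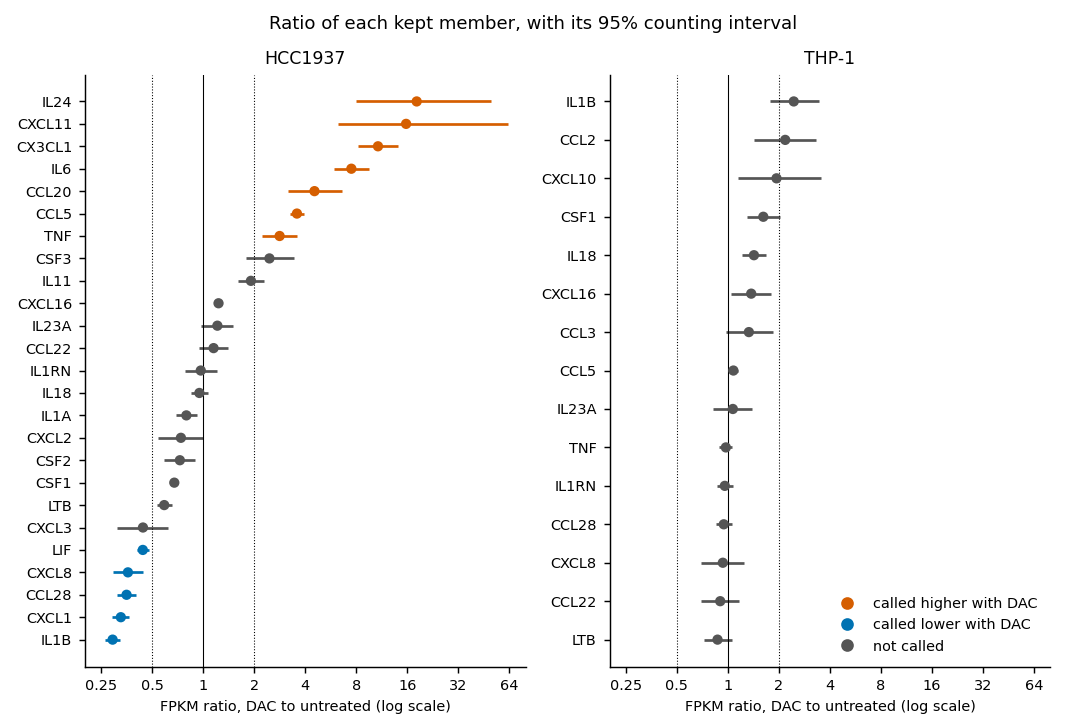
Ratio of FPKM with DAC to untreated on a log2 axis for the members kept in HCC1937 (25) and THP-1 (15), with 95% counting intervals as bars; dotted lines mark 2-fold. In HCC1937 the ratios run from 0.292 (IL1B) to 18.2 (IL24), and in THP-1 from 0.868 (LTB) to 2.45 (IL1B).

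Of the 4 kept genes of the IL-1 family in HCC1937, 1 was called, IL1B, which was lower, as were 1.44% of all kept genes. IL1B (ENSG00000125538.11, chromosome 2, 112829751 to 112836903), a pro-inflammatory cytokine that must be cleaved before release, had 7.84 FPKM with DAC and 26.9 FPKM untreated, a ratio of 0.292 (0.262 to 0.324). IL1A, the gene next to it, whose product acts on the same receptor, had 8.58 and 10.8 FPKM, a ratio of 0.795 (0.688 to 0.918). IL1RN, the natural antagonist of that receptor, had 2.64 and 2.73 FPKM, so the level of IL1B relative to IL1RN was 2.97 with DAC and 9.84 untreated. IL18 had 12.1 and 12.8 FPKM, with an interval of the ratio that included 1 (0.847 to 1.06) as deposited and lay below it under both other scalings. IL36G, at 0.23 and 0.43 FPKM, was not kept, and IL33 was listed at 0 in both libraries.

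The IL-6 family, which signals through the shared receptor chain IL6ST, went both ways in HCC1937. IL6 (ENSG00000136244.11, chromosome 7, 22725884 to 22732002), a driver of the acute-phase response, had 15.9 FPKM with DAC and 2.12 FPKM untreated, a ratio of 7.49 (5.94 to 9.55). IL11 had 7.86 and 4.11 FPKM, a ratio of 1.91 (1.62 to 2.28) that was not called. LIF (ENSG00000128342.4, chromosome 22, 30240447 to 30246851), leukaemia inhibitory factor, had 10.9 FPKM with DAC and 24.7 FPKM untreated, a ratio of 0.440 (0.405 to 0.479). The level of IL6 relative to LIF was thus 1.46 with DAC and 0.0857 untreated. The IL6 gene is overlapped on the opposite strand by STEAP1B, which had 0.97 FPKM with DAC and 0.02 FPKM untreated, and LIF by AC004264.1, at 3.56 and 4.04 FPKM, and by LIF-AS1, at 0.93 and 0.20 FPKM. Whether the counting used strand is not given in the sources used here, so reads from such overlaps cannot be told apart.

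Of the 2 kept genes of the tumour necrosis factor family, neighbours within 7.0 kb of chromosome 6, TNF was called higher and LTB was not called. Of all kept genes 10.3% were called higher. TNF (ENSG00000232810.3, chromosome 6, 31575567 to 31578336) had 9.01 FPKM with DAC and 3.19 FPKM untreated, a ratio of 2.82 (2.24 to 3.58). Under upper-quartile scaling it was no longer called. LTB, lymphotoxin beta, had 21.5 FPKM with DAC and 36.5 FPKM untreated, a ratio of 0.589 (0.532 to 0.651), and was called lower under that scaling.

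IL24 (ENSG00000162892.15, chromosome 1, 206897443 to 206904139), a cytokine of the IL-10 family, had 2.91 FPKM with DAC and 0.16 FPKM untreated, a ratio of 18.2 (8.01 to 50.1) on about 108 and 6 reads. IL10 was listed at 0 in both HCC1937 libraries. The colony-stimulating factors, which support granulocytes and macrophages, had 0 of 3 called, where 10.3% of all kept genes were higher and 1.44% lower. CSF3 had 3.32 and 1.35 FPKM, a ratio of 2.46 (1.79 to 3.43). CSF1 had 23.9 and 35.4 FPKM, a ratio of 0.675 (0.641 to 0.711), and CSF2 had 10.6 and 14.5 FPKM, a ratio of 0.728 (0.589 to 0.900). IL23A, a subunit of IL-23, had 8.52 and 7.03 FPKM, with an interval that included 1. IL7 (0.22 and 0.61 FPKM), IL15 (0.49 and 0.64 FPKM) and TSLP (0.20 and 0.15 FPKM) were not kept.

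**Figure D3:**
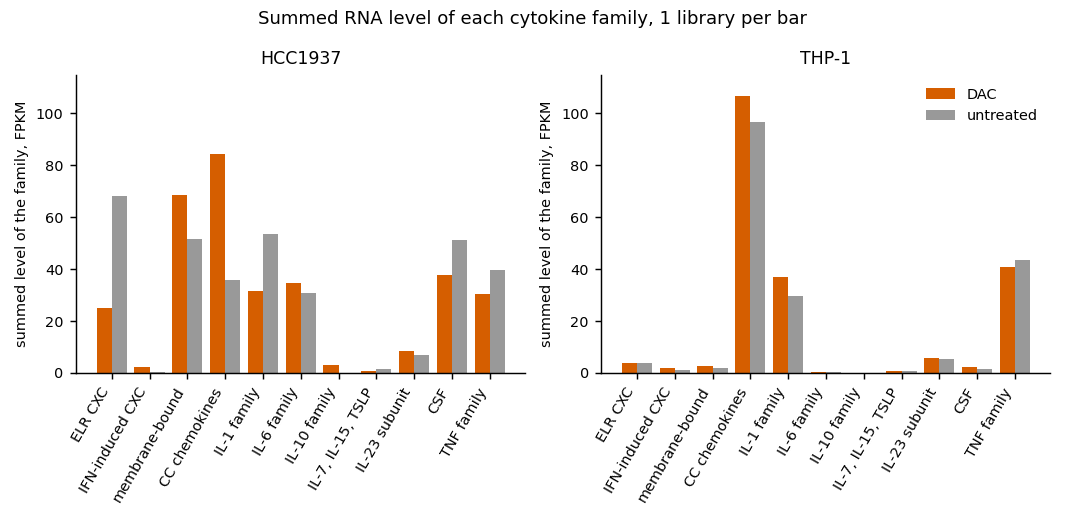
Summed FPKM of each family with DAC and untreated, 1 library per bar, without error bars since there are no replicates. In HCC1937 the ELR CXC sum is 24.98 FPKM with DAC and 68.35 untreated and the CC chemokine sum 84.4 with DAC and 35.8 untreated, while in THP-1 CC chemokines are the highest family in both libraries (107 with DAC, 96.6 untreated).

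Markers of blood cells were set beside these values, since white blood cells are a source of many cytokines. In HCC1937 the 12 myeloid markers summed to 14.7 FPKM with DAC and 9.97 FPKM untreated. Of these 4 were kept, and 2, CSF1R and TYROBP, were called higher, where 10.3% of all kept genes were. Both were kept through the DAC library alone. CD14 had 7.06 FPKM with DAC and 8.69 FPKM untreated, and the other 11 summed to 7.64 FPKM with DAC and 1.28 FPKM untreated. The 11 lymphoid markers summed to 8.91 FPKM with DAC and 0.65 FPKM untreated. Of these 3 were kept, each through the DAC library alone, and all 3, among them LCK and CD79B, were called higher. PTPRC, carried by nearly all white blood cells, had 0.09 FPKM with DAC and 0.03 FPKM untreated, and LYZ, CD2, CD3G and MS4A1 were listed at 0 in both. The 9 fibroblast and endothelial markers summed to 17.6 FPKM with DAC and 6.06 FPKM untreated, and 4 were kept. COL1A1, PECAM1 and VWF were called higher, VWF kept through the DAC library alone, and DCN was listed at 0 in both. Among the 10 epithelial markers, 2 were called higher, the basal keratin KRT14 with 112 FPKM with DAC and 14.9 FPKM untreated, and TP63 with 12.2 and 1.56 FPKM. In THP-1, KRT17, COL1A1 and PDGFRB were called higher among the same lists, each kept through the DAC library alone. They were 1 of 5 kept epithelial and 2 of 3 kept fibroblast and endothelial markers. Of the 12 kept myeloid and 3 kept lymphoid markers 0 were called, and of all kept genes 1.14% were called higher. The part of other cell types in the cytokine values was not tested. In RNA from whole cultures, fewer cells with a transcript and less transcript per cell cannot be told apart.

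In THP-1, 0 of 15 kept members were called higher, where 1.14% of all 12075 kept genes were, and 0 were called lower, where 0.364% were. The sum of the 37 levels was 202 FPKM with DAC and 185 FPKM untreated. The median log2 difference was 0.11 over kept members and 0.07 over all kept genes. IL1B was nearest to a call, at a log2 difference of 0.93, with 4.11 FPKM with DAC and 1.68 FPKM untreated, a ratio of 2.45 (1.78 to 3.46). CCL2 had 5.25 FPKM with DAC and 2.41 FPKM untreated, a ratio of 2.18 (1.42 to 3.31). Both passed 2-fold with a pseudocount of 0.1 in place of 1. CXCL10, kept through the DAC library alone, had 1.80 FPKM with DAC and 0.93 FPKM untreated, a ratio of 1.94 (1.15 to 3.52).

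Of the 15 kept THP-1 members, 7 had a counting interval of the ratio wholly above 1, the 3 above among them, and 0 had one wholly below it, as deposited. Under median-of-ratios scaling these counts were 5 and 1, without CCL5 and CXCL16 above 1 and with LTB below it. CSF1, the macrophage growth factor, had 2.28 and 1.41 FPKM, a ratio of 1.62 (1.30 to 2.02). IL18, another cytokine of the IL-1 family, had 17.4 and 12.2 FPKM, a ratio of 1.42 (1.22 to 1.67), and CXCL16 had 2.73 and 1.99 FPKM, a ratio of 1.37 (1.04 to 1.80). CCL5, the most abundant member in each THP-1 library, had 82.3 FPKM with DAC and 76.4 FPKM untreated, a ratio of 1.08 (1.01 to 1.14). TNF, the next most abundant, had 29.2 and 29.99 FPKM, a ratio of 0.972 (0.888 to 1.06).

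The other kept THP-1 members had intervals that included 1. The chemokine CCL3 was the farthest from 1 on the higher side, with 6.26 FPKM with DAC and 4.71 FPKM untreated (ratio 0.974 to 1.85), and LTB on the lower side, with 11.8 and 13.6 FPKM (0.718 to 1.05). IL1RN had 15.3 FPKM with DAC and 15.9 FPKM untreated, and IL23A 5.91 and 5.53 FPKM. Of the chemokines lower with DAC in HCC1937, CXCL8 had 2.78 and 2.98 FPKM and CCL28 9.78 and 10.4 FPKM in THP-1. CCL22, an attractant of regulatory T cells, had 2.08 and 2.31 FPKM. The remaining 22 members stayed below 1 FPKM. Among them were IL6 (0.04 FPKM in each), CX3CL1 (0.06 FPKM in each) and CXCL1 (0.51 and 0.39 FPKM), and IL10, IL33, IL36G, CXCL5 and CSF3 were listed at 0 in both. CCL4 had 0.53 FPKM with DAC and 0.08 FPKM untreated, about 9 reads and 1 read. Of the 50-base stretches of CCL4 21.3% occur also in its copy CCL4L2, and 9.9% of those of CCL3 occur in CCL3L1, so both values are uncertain.

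**Figure D4:**
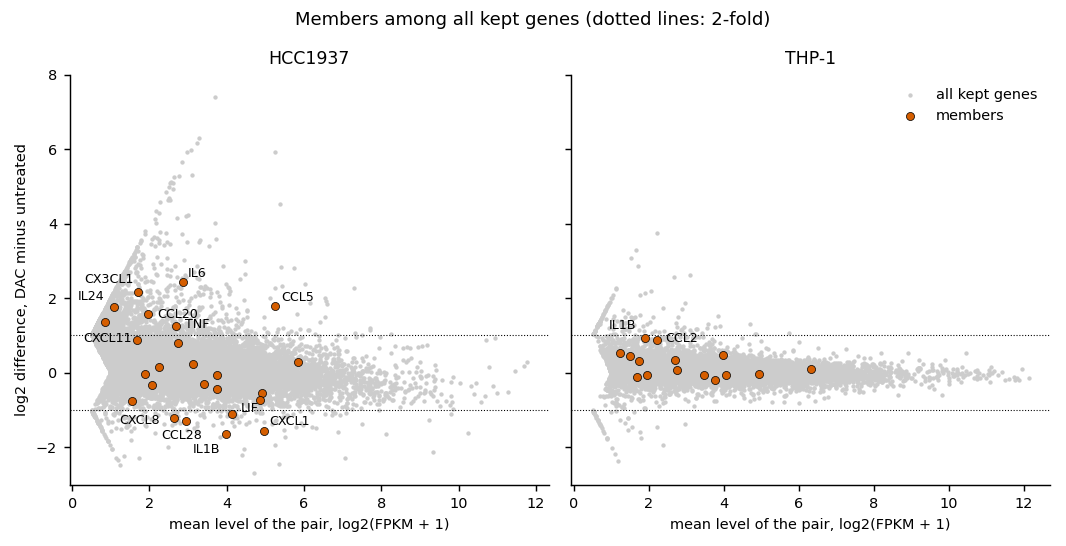
Log2 difference, DAC minus untreated, against the mean log2(FPKM + 1) of the pair for all kept genes (grey) and the members (orange), in HCC1937 and THP-1; dotted lines mark 2-fold. In HCC1937 7 members lie above the upper line and 5 below the lower, and in THP-1 0 lie outside, with IL1B (0.93) and CCL2 (0.87) nearest.

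Across the lines, 12 members were kept in both, 13 in HCC1937 alone, 3 in THP-1 alone (CCL2, CCL3 and CXCL10) and 9 in neither. The lines differed in dose and time of DAC, and the THP-1 columns imply different exon lengths, so levels are compared between lines only roughly. Of the 12 kept in both, 5 had differences of opposite sign in the 2 lines. For IL1B and CSF1 both counting intervals excluded 1 on opposite sides. IL1B had a log2 difference of -1.66 in HCC1937 and 0.93 in THP-1, and CSF1 one of -0.55 in HCC1937 and 0.44 in THP-1. As deposited, CXCL16 and CCL5 were above their untreated level in both lines by their intervals. For CXCL16 this did not hold in HCC1937 under upper-quartile scaling or in THP-1 under median-of-ratios scaling. For CCL5 it did not hold in THP-1 under either other scaling. CCL5 stood at a log2 difference of 1.79 in HCC1937 and 0.11 in THP-1. The difference between the lines was not tested.

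Genes that receive or pass on these signals were given as a list of 70. In HCC1937, 43 were kept, of which 5 were called higher (11.6%, beside the 10.3% of all kept genes) and 0 lower. All 5 were receptors, out of 21 kept (23.8%, beside the same 10.3%). TNFRSF1B, the inducible receptor of TNF, had 10.3 FPKM with DAC and 1.68 FPKM untreated, a ratio of 6.11 (5.04 to 7.51), while TNFRSF1A, the widely expressed one, had 35.7 and 42.1 FPKM. IL1R2, a decoy that binds IL-1 without signalling, had 8.18 FPKM with DAC and 2.19 FPKM untreated, a ratio of 3.74 (3.06 to 4.58), and the signalling receptor IL1R1 had 1.53 and 0.41 FPKM. IL2RB, a chain of the IL-15 receptor, had 2.09 and 0.08 FPKM, CSF1R, the receptor of CSF1, had 1.54 and 0.22 FPKM, and CCR4, a receptor of CCL22, had 1.25 FPKM with DAC and was listed at 0 untreated. Without the DAC library these 3 would not have been kept. IL15RA, with 4.25 FPKM with DAC and 9.37 FPKM untreated, missed the lower call, at a log2 difference of -0.98, and passed it under both other scalings.

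Of the receptors for the called chemokines, most were listed at or near 0 in HCC1937 itself. CX3CR1 for CX3CL1 was listed at 0 with DAC and at 0.01 FPKM untreated, CCR6 for CCL20 was listed at 0 in both, and CXCR3 for CXCL11 had 0.03 FPKM with DAC and was listed at 0 untreated. For CCL5, CCR1 had 0.12 FPKM with DAC and was listed at 0 untreated, and CCR3, which also binds CCL28, had 0.60 and 1.08 FPKM. CXCR2, for the ELR chemokines, had 0.13 FPKM with DAC and was listed at 0 untreated, and CXCR1 was listed at 0 in both. CCR10 for CCL28 had 1.94 and 0.61 FPKM. For the cytokine IL24, the chain IL20RB had 24.8 and 20.5 FPKM, while its partners IL20RA and IL22RA1 had 0.44 and 0.18 FPKM and 2.33 and 1.92 FPKM. IL1RAP, the second chain of the IL-1 receptor, had 6.38 and 7.58 FPKM. For IL6 and LIF, IL6ST had 9.97 and 7.66 FPKM, while IL6R (0.89 and 0.19 FPKM) and LIFR (0.65 and 0.22 FPKM) were not kept. Of 18 signalling genes 15 were kept and 0 called, with the largest log2 difference, 0.94, for MYD88, the adaptor of the IL-1 receptor (22.6 and 11.3 FPKM). Of 9 processing genes 7 were kept and 0 called. Among all kept genes 10.3% were called higher and 1.44% lower.

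In THP-1, 48 of the 70 were kept, of which 2 were called higher (4.2%, beside 1.14% of all kept genes) and 0 lower (beside 0.364%). These were 2 chains of the IL-15 receptor. IL2RB had 2.63 FPKM with DAC and 0.78 FPKM untreated, a ratio of 3.37 (2.55 to 4.59), and IL2RG, shared with the IL-7 receptor, had 1.93 FPKM with DAC and 0.27 FPKM untreated, a ratio of 7.15 (3.41 to 17.4). Both were kept through the DAC library alone. CX3CR1 (15.5 and 15.4 FPKM), CCR1 (13.6 and 14.8 FPKM), CCR2 (38.6 and 47.8 FPKM), IL6R (84.4 and 90.3 FPKM) and CXCR2 (6.17 and 5.66 FPKM) were well above 1 FPKM in both libraries.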

How the data were processed

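The labels describe Illumina TruSeq mRNA libraries of total RNA. The submitters' processing notes name hg38 and the tools FastQC, cutadapt, STAR and HTSeq. Versions, annotation and strand use are not given in the sources used here. No unit stands in the deposited table. FPKM made by the authors was taken as the unit because value times exon length summed to 0.983 to 1.09 M in each library and short genes fell on whole reads within 0.1 of a read in 94.4% to 95.8% of values. That sum used GENCODE 29 exon lengths for HCC1937. For THP-1, which has no value in 37039 of 60612 lines, it used the exons of transcripts paired with RefSeq, since all GENCODE exons gave 1.83 M. The same lengths gave the estimated reads. Symbols that occur more than once (76) were left out.

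DAC and untreated libraries were compared within each line as deposited, without rescaling, by the rules in the text; no model was fitted, and lines were not treated as replicates. The members and gene lists were chosen with earlier results of these data known. Every member was named; of the other list, the called genes and the receptors of called members, and further ones (CSF1R, IL15RA, MYD88 and, in THP-1, CCR1, CCR2, IL6R, CXCR2 and CX3CR1) were chosen after their values were seen. Alternatives were other pseudocounts, filters, fold sizes and scalings and a rule on the counting interval. A planned description of chemokine proteins was not made. The values of some genes are not reported here. The rules were checked on simulated data. Software was Python 3.11.15 with matplotlib 3.10.9, scipy 1.17.1, numpy 2.4.6 and pandas 2.3.3.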

Additional observations from a re-analysis of the deposited data

Results flagged for a closer look

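For IL1B and CSF1 the difference had opposite signs in the 2 lines, with both counting intervals excluding 1. IL1B had a log2 difference of -1.66 in HCC1937 and 0.93 in THP-1. CSF1 had a log2 difference of -0.55 in HCC1937 and 0.44 in THP-1. The difference between the lines was not tested, and dose, time and cell type cannot be told apart in it.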

How the results depend on the processing

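No paired analysis was possible because each group had 1 library, and none could be left out for the same reason. The log2 differences of kept members were recomputed with the other pseudocounts and scalings, 160 values in all. A called member could not turn sign here, since a pseudocount keeps the sign and the scalings shift values by less than a call needs. Its unchanged sign is therefore no support. Upper-quartile scaling turned 3 uncalled members in HCC1937, IL23A (-0.03 in place of 0.25), CXCL16 (-0.01 in place of 0.29) and CCL22 (-0.09 in place of 0.16). Of the 25 kept HCC1937 members, 7 were higher and 5 lower as reported, beside 10.3% and 1.44% of all kept genes. A pseudocount of 10 left 2 higher and 2 lower, beside 0.932% and 0.221% of all kept genes. A 3-fold rule left 4 and 1, beside 3.76% and 0.213%. IL6, CCL5 and IL1B were called under all 8 other settings of pseudocount, filter, scaling and fold size. A rule that the counting interval lie beyond 2-fold, the filters, the scalings, a pseudocount of 0.1 and a 1.5-fold rule kept both counts within 1.5 times. In THP-1, where 0 members were called higher, a pseudocount of 0.1 and a 1.5-fold rule each called 2, beside 2.46% and 3.3% of all kept genes. In HCC1937 the receptor and signalling list had 5 higher as reported, 10 with a pseudocount of 0.1, 0 with a pseudocount of 10, 2 with a filter at 5 FPKM, 13 with a 1.5-fold rule and 1 with a 3-fold rule. The share of all kept genes called higher was 10.3% as reported and 16.5%, 0.932%, 7.04%, 22% and 3.76% under the same settings. The list had 0 lower as reported and 1 with a pseudocount of 0.1, under median-of-ratios scaling, under upper-quartile scaling and with a 1.5-fold rule. The share of all kept genes called lower was 1.44% as reported and 2.72%, 2.13%, 3.52% and 5.93% under these settings. In THP-1 that list had 2 higher as reported, 0 with a pseudocount of 10, a filter at 5 FPKM or a 3-fold rule, and 1 under median-of-ratios scaling and under upper-quartile scaling. There the share of all kept genes called higher was 1.14% as reported and 0.0248%, 0.497%, 0.248%, 1.05% and 1.09% under these settings. Higher genes made up 87.8% of all HCC1937 calls as deposited, 80.7% under median-of-ratios and 68.6% under upper-quartile scaling, where the median of all kept genes was 0.06 and -0.08 in place of 0.19. The interval rule with all GENCODE exon lengths for THP-1 was chosen after seeing the data and left the counts there unchanged for the members. Counting intervals under both other scalings were also added after seeing the data. In HCC1937, 10 kept members had an interval above 1 and 10 below as deposited, 10 and 12 under median-of-ratios and 9 and 13 under upper-quartile scaling. In THP-1 these were 7 and 0 as deposited, 5 and 1 under median-of-ratios and 6 and 0 under upper-quartile scaling. Depth limits CXCL11, IL24, CXCL10 and CCL4, whose values rest on few reads.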

Other observations

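Several members lie in gene clusters, and the coding genes between them were looked at as well; those named here were chosen after their values were seen. Between CXCL8 and CXCL2 on chromosome 4, the chemokine genes PF4V1, PF4 and PPBP were listed at 0 in both HCC1937 libraries. Between IL1A and IL1RN on chromosome 2, IL37 had 0.38 FPKM with DAC and was listed at 0 untreated, and IL36RN had 0.83 FPKM with DAC and 0.20 FPKM untreated, in HCC1937. Between IL10 and IL24 on chromosome 1, IL20 had 0.20 FPKM with DAC and 0.07 FPKM untreated. In the stretch of chromosome 17 from CCL2 to CCL4 (1850 kb), 37 other coding genes had values, of which 14 were kept in HCC1937. Of these, 1 was called higher and 0 lower, where 10.3% and 1.44% of all kept genes were. The higher one was SLFN13, with 3.21 FPKM with DAC and 0.84 FPKM untreated, kept through the DAC library alone. The chemokine CCL23 in that stretch was listed at 0 in both HCC1937 libraries and had 3.17 FPKM with DAC and 2.63 FPKM untreated in THP-1.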
